A study of Mus musculus with 9 samples.

Results

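The microRNAs mmu-miR-192-5p, mmu-miR-192-3p, mmu-miR-194-5p and mmu-miR-215-5p, written below without the mouse prefix, were followed in small extracellular vesicles of mouse serum. They are the 4 rows named for the miR-192 and miR-215 clusters among 1064 known mouse microRNAs, and were chosen by name. The data are small RNA sequencing counts from 9 libraries, 3 in each of 3 groups of mice, which the title of the series gives as male. Chow WT are wild-type mice fed chow, HFD WT are mice labelled wild type and fed a high fat diet, and HFD Sirt3 AKI are mice on that diet with adipose-specific overexpression of Sirt3, a mitochondrial deacetylase. The promoter that drives the overexpression, the age of the mice, the length of the diet and whether serum was pooled are not given in the labels. The library names of HFD WT carry the code SIRT3CKI, which those of chow WT lack, so that any difference in mouse line between these groups cannot be told apart from the diet. The labels do not say that the libraries of a group came from separate animals, and the p-values therefore measure only the spread between these samples, which may be technical.

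Mature microRNAs guide Argonaute proteins to messenger RNAs, chiefly through the seed, bases 2 to 8 from the 5′ end. The miR-192, miR-194 and miR-215 precursors lie in paired clusters, each with its own copy of miR-194, and their products are abundant in liver, intestinal epithelium and kidney. Transcription of these clusters is promoted by p53 and by hepatocyte nuclear factors. As miR-192-5p and miR-215-5p share a seed they can repress overlapping sets of messenger RNAs, among them regulators of the cell cycle.

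The mature sequences are shown because the results turn on how close miR-192-5p and miR-215-5p are, and they are taken from RefSeq (GRCm38.p6) with the seed in capitals.
miR-192-5p: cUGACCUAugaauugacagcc
miR-215-5p: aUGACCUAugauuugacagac
miR-194-5p: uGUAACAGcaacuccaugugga
miR-192-3p: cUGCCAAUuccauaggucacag
miR-215-3p: uCUGUCAUucuguaggccaau
The 2 relatives are identical at 18 of 21 positions. Counted from the 5′ end of miR-192-5p they differ by C1A, A12U and C20A, all outside the seed. Among 1679 mature mouse microRNAs in the RefSeq table, miR-215-5p was the only other one with the seed of miR-192-5p, and no other microRNA had the seed of miR-194-5p, miR-192-3p or miR-215-3p. The authors' treatment of reads that match both relatives is not given in the labels, so that a share of the reads of one may have been counted for the other. The opposite arm of the miR-215 hairpin, miR-215-3p, was therefore followed as well.

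The 2 hairpins are shown with both mature arms in capitals, to place the arms that were counted.
Mir192: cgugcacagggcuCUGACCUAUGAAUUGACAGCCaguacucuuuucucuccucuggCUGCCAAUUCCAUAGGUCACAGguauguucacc
Mir215: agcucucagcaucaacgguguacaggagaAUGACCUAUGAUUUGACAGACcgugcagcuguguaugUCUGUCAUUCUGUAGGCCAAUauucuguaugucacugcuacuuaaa
In GRCm38.p6 Mir192 lies on the plus strand at chr19:6264844-6264932, with 115 bases between it and the upstream Mir194-2 (chr19:6264643-6264728). No other gene of GENCODE vM21 overlaps either of them. Mir215 lies on the plus strand at chr1:185313581-185313692, with 195 bases between it and the upstream Mir194-1 (chr1:185313319-185313385). Mir215 overlaps an exon and Mir194-1 an intron of the noncoding gene 2010103J01Rik, and both lie within introns of Iars2, a mitochondrial tRNA synthetase gene on the opposite strand. The sequence of miR-194-5p is the same from both clusters, so that its counts cannot be assigned to either. The arms that would separate the clusters, miR-194-1-3p and miR-194-2-3p, were almost absent. Summed over the 3 libraries of each group, miR-194-1-3p had 1 count for chow WT, 4 for HFD WT and 3 for HFD Sirt3 AKI, and miR-194-2-3p had 2, 7 and 5. Where a library had 0 counts, up to 3 counts are allowed by counting error alone.

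Levels are given as normalised CPM, counts per 1000000 scaled with trimmed mean of M values (TMM) factors. They carry no length term, which matters little here since the mature sequences have 21 or 22 bases, but ligation and amplification can favour some sequences over others. Chow WT libraries held 225002 to 306974 counts, HFD WT 1953935 to 2162009 and HFD Sirt3 AKI 1729416 to 2973432, so that 1 count was worth 2.55 to 3.34 normalised CPM in chow WT libraries and 0.36 to 0.66 in the others. No marker among microRNAs defines a vesicle, so the labelled source could not be checked, but red cell microRNAs were abundant in every library. A batch label sets HFD Sirt3 AKI replicates 2 and 3 apart from the other 7 libraries. HFD Sirt3 AKI replicate 2 also stood apart in its contents, with 16693 normalised CPM of 4 skin and brain microRNAs against 6130 and 8541 in replicates 1 and 3 and at most 4942 in the other 2 groups. It held 25960 normalised CPM of miR-122-5p, the main hepatocyte microRNA, against 5679 and 11221.

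The most abundant member was miR-192-5p, the guide arm of its hairpin. Chow WT replicates 1 to 3 held 7496, 6811 and 7289 normalised CPM. HFD WT replicates held 2614, 2951 and 3048, and HFD Sirt3 AKI replicates 3133, 5106 and 3665. All chow WT libraries were above all libraries of both high fat diet groups, and all HFD Sirt3 AKI libraries were above all HFD WT libraries, replicate 1 by little. Such separation was common over the 414 microRNAs tested. Chow WT did not overlap HFD WT for 54.8% of them or HFD Sirt3 AKI for 49.3%. The 2 high fat diet groups did not overlap for 26.1%. These shares are the background for each microRNA below as well. By mean level miR-192-5p ranked 21 among the 1064 known microRNAs in chow WT, 49 with HFD WT and 41 with HFD Sirt3 AKI.

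Its relative miR-215-5p, the guide arm of the chromosome 1 hairpin, was lowest in chow WT, where miR-192-5p was highest. It stood at 81.6, 112 and 66.8 normalised CPM in chow WT, from 32, 43 and 20 counts. HFD WT libraries had 359, 440 and 382, and those of HFD Sirt3 AKI 497, 322 and 447. The chow WT libraries were below all others, and the 2 high fat diet groups overlapped, with HFD Sirt3 AKI replicate 2 the lowest of these 6 libraries. Its rank was 175 in chow WT, against 103 and 102 under the high fat diet.

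Both hairpin clusters hold a copy of miR-194-5p. Chow WT replicates had 681, 632 and 505 normalised CPM, HFD WT replicates 443, 522 and 475, and HFD Sirt3 AKI replicates 487, 728 and 543. All 3 groups overlapped. The order of the group means was 606 ± 90.9 for chow WT, 586 ± 126 for HFD Sirt3 AKI and 480.0 ± 39.8 for HFD WT (SD, n = 3), and no neighbours in this order differed beyond their spread.

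The passenger arm miR-192-3p was near the limit of detection. Its counts were 1, 5 and 1 for chow WT, 8, 23 and 13 for HFD WT, and 20, 32 and 30 for HFD Sirt3 AKI. Its level was 6.31 ± 5.85, 9.36 ± 5.31 and 13.3 ± 5.30 normalised CPM in the same order (SD, n = 3), and the groups overlapped. The other arm of the miR-215 hairpin, miR-215-3p, had 7, 9 and 4 counts for chow WT, 68, 47 and 55 for HFD WT, and 217, 91 and 145 for HFD Sirt3 AKI. Its level was 18.2 ± 5.07, 35.0 ± 3.84 and 67.4 ± 16.7 normalised CPM (SD, n = 3), and no 2 groups overlapped.

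**Figure D1:**
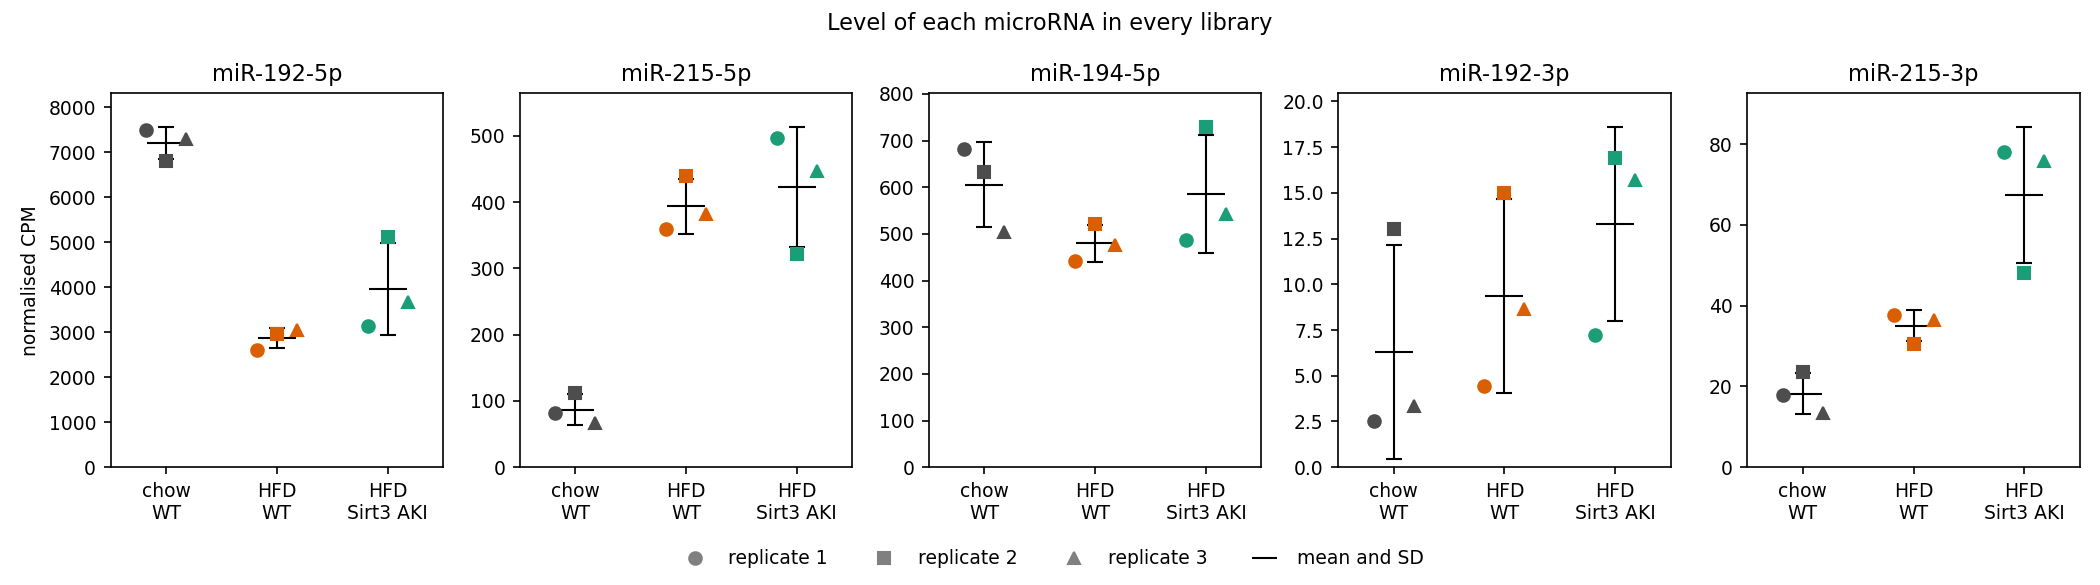
Normalised CPM (vertical axes, linear from 0, each with its own range) of miR-192-5p, miR-215-5p, miR-194-5p, miR-192-3p and miR-215-3p in the 9 libraries, by group; symbols mark the replicates, and the horizontal mark and bar give the mean and SD of 3 libraries. Chow WT lies highest for miR-192-5p, at 6811 to 7496, and lowest for miR-215-5p, at 66.8 to 112.

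HFD WT was compared with chow WT for the effect of the diet. Every chow WT library held fewer counts than any library of the high fat diet groups, so that library yield cannot be told apart from the diet. The level of miR-192-5p fell 2.51-fold, with 7198 ± 351 normalised CPM under chow and 2871 ± 228 under the high fat diet (SD, n = 3; log2 fold change -1.33, SE 0.17, edgeR adjusted p = 1.13e-04). That of miR-215-5p rose 4.49-fold, with 86.9 ± 23.1 normalised CPM under chow and 393 ± 41.8 under the high fat diet (2.17, SE 0.23, adjusted p = 3.14e-05). Neither miR-194-5p (log2 fold change -0.34, SE 0.18, edgeR adjusted p = 0.168) nor miR-192-3p (0.51, SE 0.76, adjusted p = 0.651) passed the test. Of the 4 members, all of which were among the 414 microRNAs tested, 1 rose and 1 fell. Over all tested microRNAs 37.7% were called in this comparison, 21.5% higher and 16.2% lower, and the libraries of the 2 groups did not overlap for 54.8%. Fewer vesicles from a tissue and fewer copies per vesicle cannot be told apart in these data.

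The opposite directions of the relatives held under every scaling tried. Library totals in place of TMM moved the median log2 fold change over the 414 microRNAs from 0.15 to -0.57. With them the log2 fold change was -2.06 for miR-192-5p (SE 0.21, edgeR adjusted p = 4.53e-05) and 1.44 for miR-215-5p (SE 0.20, adjusted p = 3.00e-04). The scaling did decide the call of miR-194-5p, which was lower with library totals (-1.07, SE 0.21, edgeR adjusted p = 0.00266). It was also called lower with limma on TPM (-1.06, adjusted p = 0.00733) and in an edgeR fit of only these 2 groups (-0.41, adjusted p = 0.0112).

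A ratio of counts within a library needs no scaling between libraries. Counts of miR-215-5p were 1.09%, 1.65% and 0.917% of those of miR-192-5p in chow WT replicates 1 to 3, and 13.7%, 14.9% and 12.5% in those of HFD WT. The groups were far apart relative to their spread. The mean log2 ratio was -6.40 ± 0.43 for chow WT and -2.87 ± 0.13 for HFD WT (SD, n = 3), a difference of 3.54 or 11.6-fold (two-sided exact permutation p = 0.1, the smallest that 3 libraries against 3 allow, and 0.133 adjusted over the 12 such tests). Leaving out single libraries gave differences of 3.35 to 3.78.

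In normalised CPM the rise of miR-215-5p was smaller than the fall of miR-192-5p. The relatives, which share a seed, together stood at 7577, 6923 and 7356 normalised CPM under chow, against 2973, 3391 and 3429 for HFD WT. The 2 groups did not overlap, with a log2 difference of -1.16 or 2.23-fold (two-sided exact permutation p = 0.1, adjusted p = 0.133), and -1.89 with library totals. Relative to this sum, miR-194-5p went from 8.99%, 9.12% and 6.86% to 14.9%, 15.4% and 13.9%, a log2 difference of 0.83 (two-sided exact permutation p = 0.1, adjusted p = 0.133), and these groups did not overlap either.

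The other arm of the miR-215 hairpin also passed the test in HFD WT over chow WT, at 0.92 on the log2 scale (SE 0.33, edgeR adjusted p = 0.0469). That call was not stable. It was lost with DESeq2-type size factors (0.82, adjusted p = 0.0805), DESeq2 (0.82, adjusted p = 0.163), library totals (0.20, adjusted p = 0.700), limma on TPM (0.23, adjusted p = 0.489), in the fit of only these 2 groups (0.85, adjusted p = 0.0538) and with a term for the batch (0.92, adjusted p = 0.0544). It was also lost without any 1 of 7 libraries, all except chow WT replicate 2 and HFD Sirt3 AKI replicate 2, with log2 fold changes of 0.76 to 1.17 over all 9 omissions.

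The arms of miR-215 did not keep their proportion, an observation made after the values were seen. For each count of miR-215-3p, chow WT replicates had 4.57, 4.78 and 5 counts of miR-215-5p. HFD WT replicates had 9.49, 14.4 and 10.5, and HFD Sirt3 AKI replicates 6.36, 6.68 and 5.89. The 3 groups did not overlap, and HFD WT was the highest. The log2 ratio differed by 1.24 between HFD WT and chow WT and by -0.84 between HFD Sirt3 AKI and HFD WT (two-sided exact permutation p = 0.1 in each, the smallest possible). The chow WT ratios rest on 4 to 9 counts of miR-215-3p per library.

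**Figure D2:**
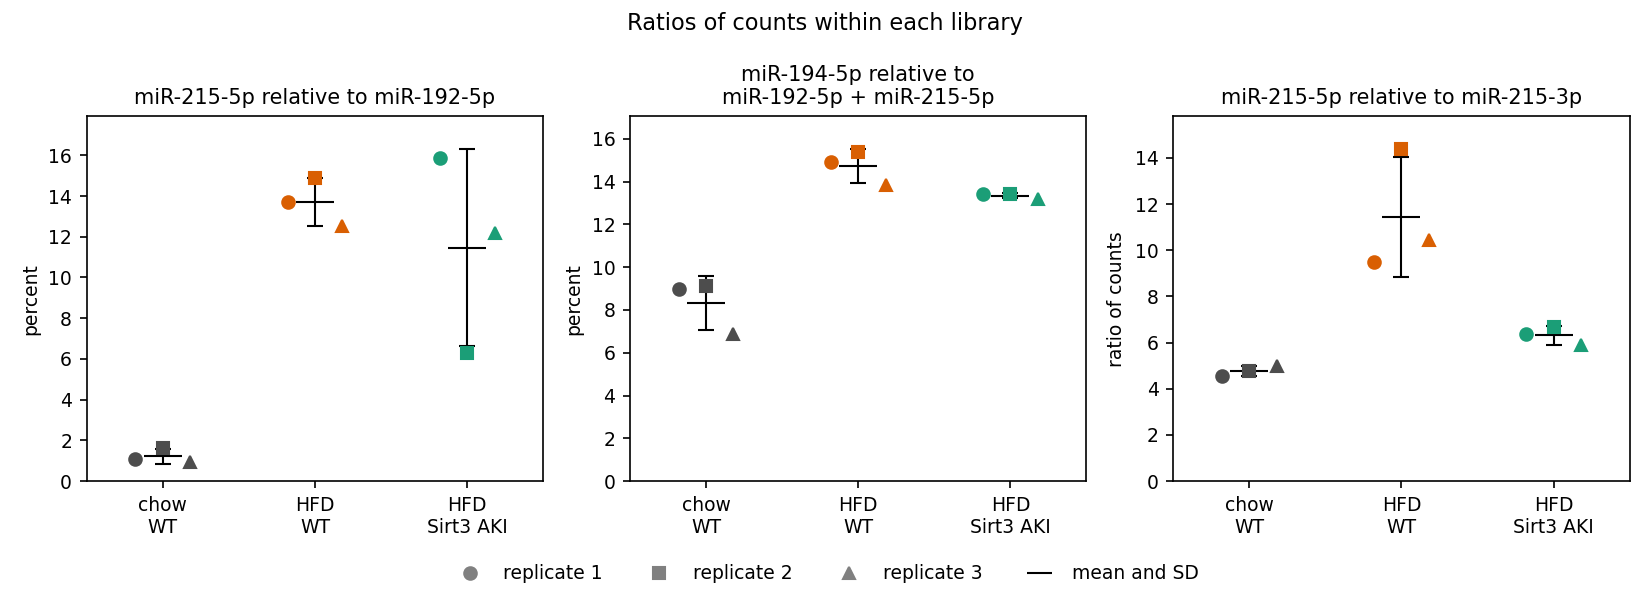
Ratios of counts within each of the 9 libraries, by group (linear vertical axes from 0): miR-215-5p as a percent of miR-192-5p, miR-194-5p as a percent of the sum of miR-192-5p and miR-215-5p, and miR-215-5p per count of miR-215-3p; symbols mark the replicates, and the mark and bar the mean and SD of 3 libraries. The chow WT libraries lie lowest in all 3 panels, and HFD Sirt3 AKI replicate 2 lies at 6.30% in the first panel against 15.9% and 12.2% for its group.

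HFD Sirt3 AKI was compared with HFD WT for the effect of adipose Sirt3 under the diet. No member passed the test, against 8.94% of the 414 tested microRNAs (1.45% higher and 7.49% lower), and for 26.1% of these the libraries of the 2 groups did not overlap. By edgeR miR-192-5p, at an unadjusted p of 0.0170, was the only member below 0.05 before adjustment, and by DESeq2 it was called. Its level was 3968 ± 1020 against 2871 ± 228 normalised CPM (SD, n = 3; log2 fold change 0.47, SE 0.17, edgeR adjusted p = 0.105). The log2 fold change of miR-194-5p was 0.29 (SE 0.18, edgeR adjusted p = 0.332) and that of miR-215-5p 0.10 (SE 0.20, adjusted p = 0.786). That of miR-192-3p was 0.50 (SE 0.55, adjusted p = 0.614).

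The value for miR-192-5p moved with the settings and with single libraries. It was called higher with DESeq2 (0.56, adjusted p = 0.0219), with library totals (0.81, edgeR adjusted p = 0.0343) and without HFD Sirt3 AKI replicate 1 (0.62, edgeR adjusted p = 0.0136). Over all tested microRNAs these settings called 35, 36 and 55 higher, against 6 in the main fit. Without replicate 1 the group holds only libraries of the other batch label, so that group and batch cannot be told apart. Without HFD Sirt3 AKI replicate 2 the value for miR-192-5p was 0.27 (edgeR adjusted p = 0.152). Since replicates 2 and 3 share the other batch label, a batch term leaves replicate 1 alone to set the group level. With that term miR-192-5p was at 0.13, against 0.020 for miR-194-5p and 0.34 for miR-215-5p. In the larger batch, where replicate 1 alone represents the group and is assumed to vary like the others, it was 0.27 (adjusted p = 0.286), against 0.16 (adjusted p = 0.675) for miR-194-5p and 0.48 (adjusted p = 0.155) for miR-215-5p.

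Within HFD Sirt3 AKI the libraries differed in the balance of the relatives. Counts of miR-215-5p were 15.9%, 6.30% and 12.2% of those of miR-192-5p in replicates 1 to 3, so that replicate 2 lay below all HFD WT libraries and replicate 1 above them. The mean log2 ratio was -3.23 ± 0.69 (SD, n = 3) and differed from HFD WT by -0.36 (two-sided exact permutation p = 0.6, adjusted p = 0.655). In contrast, miR-194-5p relative to the sum of the relatives was nearly constant in this group, at 13.4%, 13.4% and 13.2%, although the sum itself was 3631, 5427 and 4112 normalised CPM. These percentages lay just below the 13.9% to 15.4% of HFD WT, with a log2 difference of -0.14 (two-sided exact permutation p = 0.1, adjusted p = 0.133). The sum of the relatives was higher than in HFD WT in 3 of 3 libraries, by 0.41 on the log2 scale (two-sided exact permutation p = 0.1, adjusted p = 0.133), but by 0.16 in the larger batch alone.

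The opposite arm miR-215-3p stood at 67.4 against 35.0 normalised CPM in this comparison, 0.95 on the log2 scale (SE 0.27, edgeR adjusted p = 0.0519). It was called higher in several alternatives, among them DESeq2 (1.05, adjusted p = 0.0186) and the larger batch (1.29). The fit without HFD Sirt3 AKI replicate 2 also called it (1.17, edgeR adjusted p = 0.00347), and no fit without another single library did. Over all tested microRNAs DESeq2 called 35 higher and the fit without replicate 2 called 17, against 6 in the main fit.

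HFD Sirt3 AKI was also compared with chow WT, which is shared with the first comparison. Here miR-192-5p fell 1.81-fold (log2 fold change -0.86, SE 0.17, edgeR adjusted p = 0.00184) and miR-215-5p rose 4.82-fold (2.27, SE 0.23, adjusted p = 2.02e-05). The other arm miR-215-3p rose 3.64-fold (1.87, SE 0.32, edgeR adjusted p = 9.04e-04). The members miR-194-5p (-0.051, SE 0.18, adjusted p = 0.846) and miR-192-3p (1.01, SE 0.73, adjusted p = 0.308) did not pass. Thus 1 of 4 members rose and 1 fell, where 39.9% of tested microRNAs were called, 20.3% higher and 19.6% lower, and the libraries did not overlap for 49.3%. Both member calls and that of miR-215-3p were also made with every scaling, tool and omission tried, and in the larger batch alone, where the values were -1.0, 2.70 and 2.27 for miR-192-5p, miR-215-5p and miR-215-3p. The log2 ratio of miR-215-5p to miR-192-5p was 3.18 higher than in chow WT (two-sided exact permutation p = 0.1, adjusted p = 0.133).

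**Figure D3:**
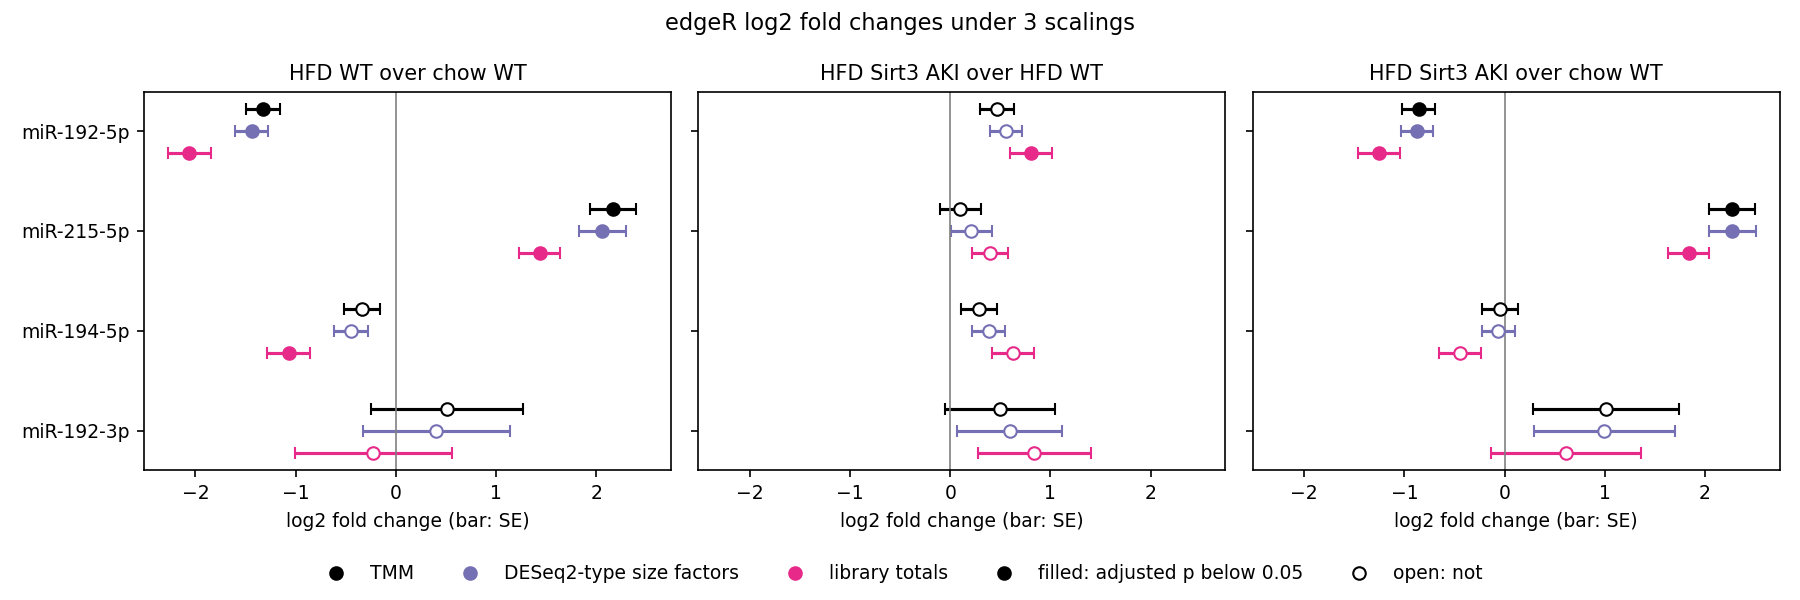
Log2 fold changes from edgeR (horizontal axes, bars give the SE) of the 4 members in the 3 comparisons, under TMM, DESeq2-type size factors and library totals; filled points have an adjusted p below 0.05. In HFD WT over chow WT miR-192-5p lies at -1.33 and miR-215-5p at 2.17 with TMM, and each stays on its side of 0 under the other 2 scalings.

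Other microRNAs of the tissues that make these clusters were set beside the members. Hepatocyte microRNAs (miR-122, miR-802, miR-148a and miR-101b arms) had 5 of 7 members tested. Under the high fat diet 1 rose relative to chow, miR-148a-3p, a regulator of the low density lipoprotein receptor (log2 fold change 1.08, SE 0.26, edgeR adjusted p = 0.00765), which was not called with library totals, and 4 did not pass. The list median was -0.036 against 0.15 over all tested microRNAs. The hepatocyte marker miR-122-5p stood at 4982 ± 1571 normalised CPM in chow WT against 4470 ± 308 in HFD WT (SD, n = 3; -0.16, edgeR adjusted p = 0.813). The summed level of the list ranged from 5638 to 8697 normalised CPM over chow WT libraries and from 7672 to 7790 over those of HFD WT.

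Gut epithelial microRNAs, of which the miR-200 family maintains epithelial identity, were all tested. Relative to chow 4 of 7 fell in HFD WT and 1 rose, with a median of -0.81 against 0.15 over all tested microRNAs. Of all those tested 16.2% were called lower and 21.5% higher. The decreases were in miR-429-3p (-4.87, SE 0.23), miR-200a-3p (-2.86, SE 0.41), miR-200b-3p (-2.18, SE 0.19) and miR-200c-3p (-0.58, SE 0.14), and the increase was in miR-375-3p (0.94, SE 0.26), which is also a pancreatic islet microRNA and was not called with library totals. Their summed level was 8993 to 9480 normalised CPM for chow WT and 1335 to 1379 for HFD WT. This sum was thus lower together with miR-192-5p where miR-215-5p was higher. Its fall came mainly from miR-429-3p, with a mean of 4515 in chow WT and 155 in HFD WT, and miR-200a-3p, with 3049 and 421. In contrast miR-31-5p stood at 144 and 131. Kidney tubule microRNAs had 4 decreases and no increase among 6, with a median of -0.70, and a summed level of 14006 to 14744 for chow WT and 11452 to 13053 for HFD WT. The decreases were in miR-196a-5p (-5.32, SE 0.75) and miR-10a-5p (-0.55, SE 0.11), which lie in Hox gene clusters, in miR-190a-5p (-1.90, SE 0.68) and in miR-204-5p (-0.84, SE 0.28), a microRNA of tubule and eye epithelia. No member of these 3 lists was at 0 in all libraries of a group. Their part in the results for miR-192-5p and miR-215-5p was not tested.

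In HFD Sirt3 AKI over HFD WT the hepatocyte list had 1 increase among 5 and a median of 0.83, against -0.021 over all tested microRNAs. The increase was in miR-122-5p (1.68, SE 0.44, edgeR adjusted p = 0.0412), which was 0.93 without HFD Sirt3 AKI replicate 2 (adjusted p = 0.0135) and 0.48 in the larger batch (adjusted p = 0.198). In the larger batch the list had no increase and 1 decrease, with a median of -0.44, and without replicate 2 it had 1 increase and 2 decreases, with a median of 0.43. Of the gut list miR-375-3p rose (1.36, SE 0.24, edgeR adjusted p = 0.00559) and 6 did not pass, with a median of 0.58. DESeq2 called 5 increases in this list and library totals 4. Over all 414 tested microRNAs these settings called 35 and 36 increases, against 6 in the main fit. No kidney tubule microRNA was called (median 0.13), though 2 were higher with library totals. In HFD Sirt3 AKI replicate 2, the library with the most miR-192-5p and miR-194-5p of its group and the least miR-215-5p, the summed hepatocyte list was 29642 normalised CPM against 7776 and 13408, and the gut list 3659 against 1784 and 2130.

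Blood cell microRNAs were also set beside the members. Relative to chow 5 of 8 red cell microRNAs rose in HFD WT and 1 fell, with a median of 1.23. Over all tested microRNAs the median was 0.15, and 37.7% were called. The increases were in miR-486a-5p and miR-486b-5p, which have identical counts, and in miR-16-5p, miR-92a-3p and miR-25-3p. The miR-486 pair is thus not 2 separate observations, yet it fills 2 of the 8 places in every red cell median, sum and number of calls. The decrease was in miR-144-5p (-0.77, SE 0.17), while miR-451a (0.39, SE 0.22) and miR-144-3p (0.18, SE 0.18) did not pass. Of 6 white cell and platelet microRNAs 5 rose, with a median of 0.93. The summed red cell level was 295428 to 321005 normalised CPM for chow WT, 651004 to 742798 for HFD WT and 426579 to 612218 for HFD Sirt3 AKI. If the same reads were counted for both miR-486 entries, these sums are too high. Each entry of the pair alone averaged 61277 under chow, 170173 for HFD WT and 144643 with Sirt3 overexpression. The summed level of white cells and platelets was 37840 to 41263, 65384 to 69375 and 47591 to 54022 in the same group order. With library totals the white cell and platelet list had 2 increases and 2 decreases (median 0.20), and the red cell list 4 and 1 (median 0.50). The median over all tested microRNAs was then -0.57, with 20 called higher and 143 lower. Of 4 skin and brain microRNAs miR-205-5p alone rose (list median -0.33), and it was not called with library totals. In HFD Sirt3 AKI over HFD WT 3 red cell microRNAs and 3 of white cells and platelets fell (medians -0.44 and -0.45). Over all tested microRNAs 7.49% were called lower in this comparison. The red cell decreases were in miR-144-3p, miR-144-5p and miR-451a. Those of the white cell and platelet list were in both arms of miR-126a, miR-126a-3p (-0.51) and miR-126a-5p (-0.68), and in miR-142a-3p (-0.50). Of the 4 skin and brain microRNAs miR-205-5p rose again. DESeq2 called all 4 higher, where it called 35 of the 414 tested microRNAs higher, against 6 in the main fit. These blood cell counts changed with the setting. With library totals the red cell list had 1 increase and 2 decreases, and the white cell and platelet list 1 increase and no decrease. Library totals moved the median over all tested microRNAs from -0.021 to 0.27 in this comparison. DESeq2-type size factors left 2 and 1 decreases, and the larger batch had 1 increase and 2 decreases in the red cell list and no call in the other. The part of these differences in the results for the members was not tested.

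Of 8 other microRNAs whose expression or processing p53 is known to promote, all were tested. Relative to chow 2 fell in HFD WT, 1 rose and 5 did not pass, with a median of -1.11 against 0.15 over all tested microRNAs. The share called in this list is near the 37.7% of all tested microRNAs. The decreases were in miR-145a-5p, a smooth muscle microRNA (-2.51, SE 0.24, edgeR adjusted p = 1.52e-05), and in miR-34c-5p, which restrains the cell cycle (-2.15, SE 0.57, adjusted p = 0.0122), and the increase was in miR-107-3p (0.59, SE 0.15, adjusted p = 0.00900), which was not called with library totals. The best known target of p53 among them, miR-34a-5p, had 121 ± 25.2 normalised CPM under chow and 145 ± 14 in HFD WT (SD, n = 3; 0.26, SE 0.47, edgeR adjusted p = 0.713). In HFD Sirt3 AKI over HFD WT 1 of the 8, miR-107-3p, fell (-0.57, SE 0.14, edgeR adjusted p = 0.0335) and 7 did not pass, with a median of 0.58 against -0.021 over all tested microRNAs. That decrease was not called with library totals, in the larger batch or without HFD Sirt3 AKI replicate 2, and DESeq2 called 2 increases and no decrease in this list.

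**Figure D4:**
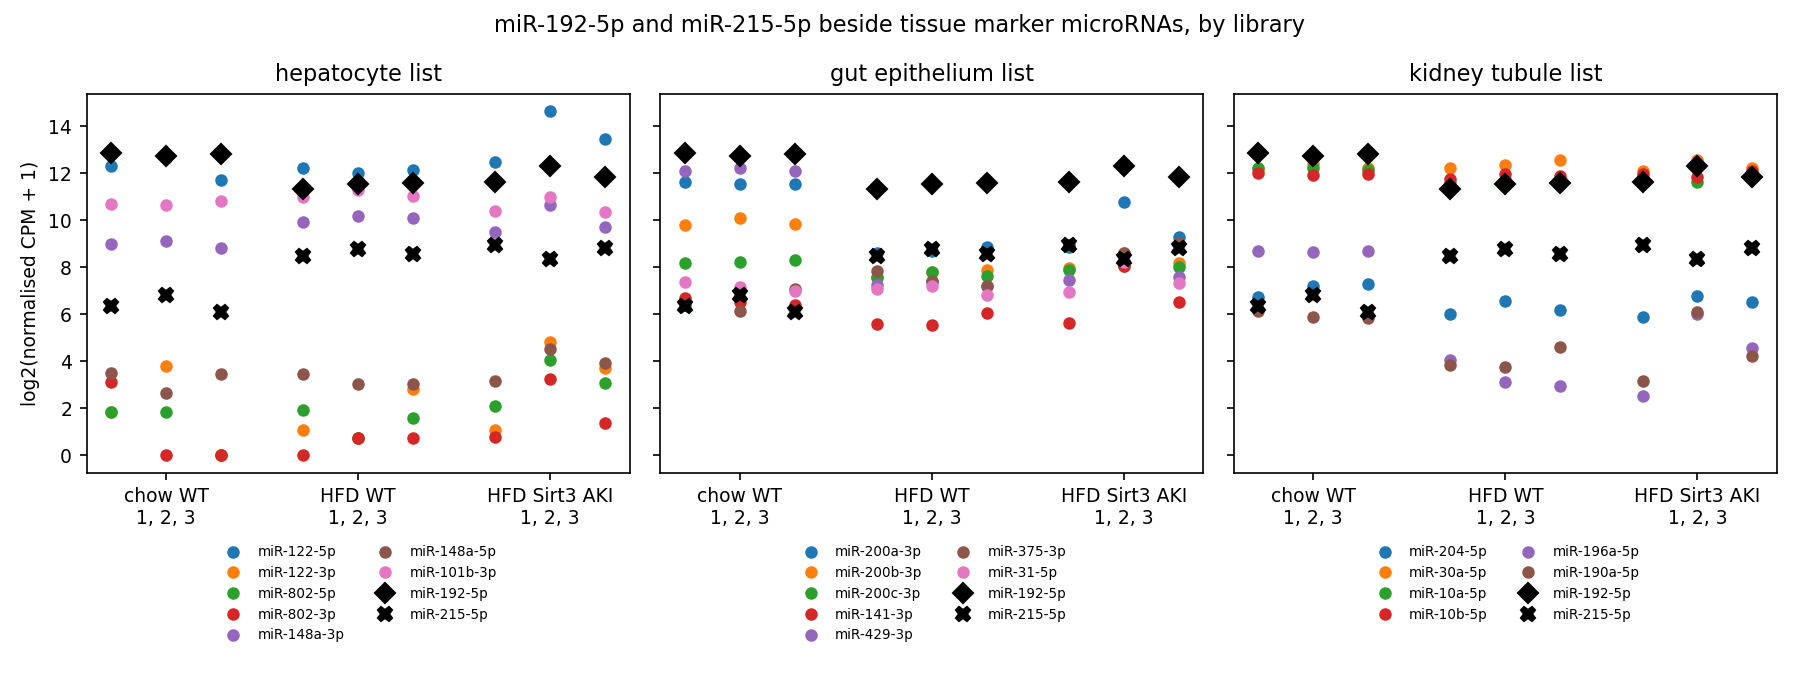
Log2(normalised CPM + 1) of the hepatocyte, gut epithelial and kidney tubule microRNAs (coloured circles) with miR-192-5p (diamonds) and miR-215-5p (crosses) in each of the 9 libraries, ordered by group and replicate number. In the gut panel the miR-200 family members miR-429-3p, miR-200a-3p and miR-200b-3p are high in chow WT, as miR-192-5p is, while miR-215-5p is low there. Not all of this list does so: miR-375-3p is lowest in chow WT, miR-31-5p overlaps between the groups, and miR-141-3p is widely spread in HFD Sirt3 AKI.

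The tested microRNAs whose log2 levels ran most like those of a member over the 9 libraries were found by Pearson correlation, given as description since the libraries share their groups and scaling. Those most like miR-192-5p were miR-200a-3p (r = 0.99), miR-1291 (0.99) and miR-365-3p (0.98). Of these, miR-1291 had 9.35 ± 1.32 normalised CPM in chow WT, was at 0 in every HFD WT library and had 1.17 ± 0.88 in HFD Sirt3 AKI (SD, n = 3), so it is near the limit of detection and passed the filter only through the group where it is high. The level of miR-365-3p was 336 ± 12.9 normalised CPM for chow WT, 124 ± 16 for HFD WT and 165 ± 48.0 for HFD Sirt3 AKI (SD, n = 3). Those most like miR-215-5p were miR-361-5p (r = 0.99), miR-1198-5p (0.99) and miR-214-3p (0.98), and the level of miR-361-5p was 421 ± 42.2, 1207 ± 127 and 1139 ± 209 normalised CPM for these groups. For miR-194-5p they were miR-9-3p (r = 0.94), miR-497a-5p (0.86) and miR-449a-5p (0.86). The level of miR-9-3p was 43.1 ± 17.1, 14.3 ± 0.86 and 49.6 ± 54.4 normalised CPM for the same groups, widely spread in HFD Sirt3 AKI. That of miR-449a-5p was 7.39 ± 0.62, 3.55 ± 2.05 and 8.57 ± 6.76, near the limit of detection. Between members r was -0.91 for miR-192-5p and miR-215-5p, 0.69 for miR-192-5p and miR-194-5p, and -0.39 for miR-215-5p and miR-194-5p.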

How the data were processed

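Serum vesicles were pelleted with a precipitation reagent, per the labels' protocols. The submitters' processing notes name Bowtie 0.12.2 and mm8 without saying what each was used for. The trimming, the microRNA reference and the counting tool are unstated there. The deposited tables hold whole-number read counts per mature microRNA and TPM. Each deposited TPM value matched the count over the library total, times 1000000, to within 5.00e-05. Their files give no coordinates, and those printed come from RefSeq and GENCODE vM21 (GRCm38).

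Counts of 1064 known and 105 predicted microRNAs were filtered (edgeR filterByExpr, minimum count 10; 0.0543% of counts left out), scaled by TMM and fitted by edgeR 4.0.16 quasi-likelihood (R 4.3.3) with a mean for each group over the 9 libraries. Calls were made at an adjusted p (Benjamini-Hochberg, over the 414 tested) below 0.05. Alternatives used DESeq2 1.42.0, limma 3.58.1 on log2(TPM + 1), other scalings, other sets of libraries, batch and replicate terms. Ratios were compared by two-sided exact permutation. Each pair of libraries of a group differed by more than sampling noise. The scripts were tested on simulated data.

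The members and lists (hepatocyte, gut epithelium, kidney tubule, red cell, white cell and platelet, skin and brain, p53-induced) were chosen with earlier results of these data known. Named microRNAs are the members, the other arms of their precursors, list members that were called or most abundant, and the 3 most correlated with each of 3 members. Some list members that were not called, such as miR-31-5p and miR-34a-5p, are named as well. The ratio of the miR-215 arms was added after its values were seen.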

Additional observations from a re-analysis of the deposited data

How the results depend on the processing

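In HFD WT over chow WT and in HFD Sirt3 AKI over chow WT, miR-192-5p stayed called lower and miR-215-5p called higher under every alternative run. With library totals, which shift every log2 fold change, values in HFD WT over chow WT were -0.22 for miR-192-3p, -1.07 for miR-194-5p and -1.89 for the sum of miR-192-5p and miR-215-5p. They were 0.81 for miR-192-5p and 0.72 for the sum in HFD Sirt3 AKI over HFD WT, and -1.17 for the sum in HFD Sirt3 AKI over chow WT. In HFD WT over chow WT, miR-194-5p was called with limma on TPM (-1.06) and in the fit of 2 groups (-0.41). In HFD Sirt3 AKI over HFD WT, DESeq2 called miR-192-5p (0.56), and miR-192-3p turned to -0.36 with the batch term and -0.21 in the larger batch. In the larger batch the log2 ratio of miR-215-5p to miR-192-5p was 0.21, that of miR-192-3p to miR-192-5p was -0.34 and the sum was 0.16, and the sum was -1.0 over chow WT. Without a filter miR-194-5p was 0.19 in HFD Sirt3 AKI over chow WT. The cause was not tested.

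Leaving out single libraries gave, in HFD Sirt3 AKI over HFD WT, 0.27 to 0.62 for miR-192-5p, -0.021 to 0.31 for miR-215-5p, -0.64 to 0.024 for the log2 ratio of miR-215-5p to miR-192-5p and -0.25 to 0.54 for that of miR-192-3p to miR-192-5p. For miR-194-5p in HFD Sirt3 AKI over chow WT the range was -0.15 to 0.085. Same-numbered libraries deviated together in 2 of 9 pairs (r above 0.1, range -0.080 to 0.19). With 3 libraries a group this check cannot decide whether the numbers pair them, and no label says that they do. With the replicate block miR-192-5p was at -1.34 and miR-215-5p at 2.17 for HFD WT over chow WT. Of the calls for the 4 members and miR-215-3p, only that of miR-215-3p in this comparison was lost (0.90, edgeR adjusted p = 0.0782). For miR-192-3p DESeq2 gave no adjusted p in HFD Sirt3 AKI over HFD WT, and it was not tested in the fit of HFD WT and chow WT alone. The chow WT libraries, with 1 to 5 counts of miR-192-3p and 20 to 43 of miR-215-5p, limit the precision of these values.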
